A study of Mus musculus with 8 samples.

Results

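Genes that fold, unfold and degrade proteins inside mitochondria were followed in mouse livers without hepatocyte Hmgb1. They encode the chaperones Hspd1, Hspe1, Hspa9 and Trap1 and the proteases, or protease subunits, Lonp1, Clpp, Clpx, Afg3l2, Spg7 and Htra2. The genes were chosen by name. Each was read from the probe sets annotated to its symbol alone, and where a gene had more than 1 such probe set the one with the highest mean over the 8 arrays was taken. All 10 genes were measured, on 12 probe sets, out of 19938 genes in the whole table.

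Whole liver RNA of male littermates 8 weeks old was hybridised to expression arrays, 1 sample per array. In 4 samples, titled AlbCRE+ 1 to 4 and called Hmgb1 deleted here, Hmgb1 had been removed by Albumin-Cre, a recombinase under a promoter active in hepatocytes. Whether Hmgb1 was also removed in other liver cells was not measured. The 4 floxed controls, titled HMGB1fl 1 to 4, carried floxed Hmgb1 alleles, and since only the titles of the deleted group name Cre, an effect of Cre cannot be told apart from that of deletion. The protocol gives a C57Bl/6 background after 5 backcrosses and whole liver, whereas other label fields give Balb/c and liver stellate cells.

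Albumin, the main secreted product of hepatocytes, had log2 intensities of 13.26 to 14.03 in the deleted livers and 13.95 to 14.01 in the controls, and the mean of 10 stellate cell markers was 7.58 to 7.70 in the deleted livers and 7.56 to 7.66 in the controls. Hmgb1 itself averaged 4.60 ± 0.31 in the deleted livers and 5.50 ± 0.19 in the controls (log2 intensity, SD, n = 4 each). All 4 deleted arrays lay below all 4 controls (limma adjusted p = 0.0216). The labels name littermates but do not say whether the 4 arrays of a group came from different animals. The p-values and intervals therefore measure the spread between arrays, which may be technical. Array medians lay between 6.08 and 6.22, above the Hmgb1 means of both groups, so Hmgb1 was read at a low level even in the controls. Floxed control 1 stood apart, at −26.6 on the first principal component against −11.4 to 11.7 for the other 7 arrays.

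As background, most mitochondrial proteins are made in the cytosol, pulled unfolded through the membranes and folded in the matrix. Mitochondrial Hsp70 (Hspa9) drives the pulling, the chaperonin Hspd1 with its lid Hspe1 gives newly imported proteins a closed chamber to fold in, and Trap1 is the Hsp90 of the organelle. Proteins that fail are degraded by ATP-driven proteases, Lonp1 and the Clpx-Clpp pair in the matrix and the m-AAA protease of Afg3l2 and Spg7 in the inner membrane, and Htra2 is a serine protease of the intermembrane space. When misfolded proteins build up in mitochondria, mammalian cells can raise the transcription of several of these genes, a response known as the mitochondrial unfolded protein response. The series title asks whether Hmgb1 is needed for mitochondrial quality control, of which these genes are the protein arm.

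Hspd1 and Hspe1 share a promoter, which is shown because it is the regulatory sequence that these 2 genes have in common. RefSeq (GRCm38.p6) places their start sites on opposite strands, and 285 of the 300 bases of a promoter window of Hspd1 lie within that of Hspe1. In that window the Hspd1 start lies 216 bases upstream of the Hspe1 start. A second annotated window of Hspd1 overlaps that of Hspe1 by 4 bases, and its start lies 95 bases downstream of the Hspe1 start. The window below runs from 250 bases before to 50 bases after the Hspe1 start. Capitals mark the bases between the Hspe1 start and the upstream Hspd1 start. The window of Lonp1, the gene with the highest fold change among the 10, is printed beside it for contrast, with an E-box in capitals.
Hspe1, chr1:55087898-55088197, plus strand: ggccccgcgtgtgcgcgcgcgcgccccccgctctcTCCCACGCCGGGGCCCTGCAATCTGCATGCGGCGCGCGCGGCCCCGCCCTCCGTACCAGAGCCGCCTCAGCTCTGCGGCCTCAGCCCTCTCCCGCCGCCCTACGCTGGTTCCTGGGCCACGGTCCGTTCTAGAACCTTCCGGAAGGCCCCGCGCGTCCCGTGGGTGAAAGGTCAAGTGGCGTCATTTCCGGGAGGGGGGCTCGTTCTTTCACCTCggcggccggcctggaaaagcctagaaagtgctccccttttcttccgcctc
Lonp1, chr17:56626854-56627153, minus strand: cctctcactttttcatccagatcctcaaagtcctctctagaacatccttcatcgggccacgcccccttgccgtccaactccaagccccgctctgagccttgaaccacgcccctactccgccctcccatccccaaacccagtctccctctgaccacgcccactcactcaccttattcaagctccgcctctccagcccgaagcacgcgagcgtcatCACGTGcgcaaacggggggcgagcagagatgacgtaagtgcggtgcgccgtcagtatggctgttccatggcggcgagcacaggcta
Short motifs were searched on both strands of the 8 windows given for the 10 genes and of all 32851 mouse promoter windows of the same length. The E-box (CACGTG) was found in the Lonp1 window and in a second window of Hspd1, against 7.15% of all windows. A cyclic AMP response element (TGACGTCA) was found in the Trap1 window, against 1.79% of all windows. A CCAAT box stood in a window of Clpx and in the same second window of Hspd1, against 37.4% of all windows. A composite pattern read by CHOP and ATF4 (TGATGNAA) matched 0 of the 8 windows, against 3.97% of all. Windows of Afg3l2, Hspa9 and Htra2 are not used here.

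The comparison asked whether the deleted livers differed from the controls in any of these transcripts. None of the 10 genes passed the threshold (0 of 10, limma, adjusted p from 0.611 to 0.996), where 0.692% of all genes passed, 0.296% as higher and 0.396% as lower in the deleted livers. None of the 10 had an unadjusted p under 0.05, against 9.46% of all genes, and the groups overlapped for every one of the 10, whereas 5.57% of all genes had groups that did not overlap. Of the 10, 3 had a higher and 7 a lower mean in the deleted livers. The fold changes ran from −0.15 for Hspd1 to 0.11 for Lonp1 on the log2 scale, with a median of −0.026 beside 0 over all genes. In bulk liver, a different number of cells of a type and a different amount of RNA per cell cannot be told apart.

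The 95% intervals of these differences lay within 1.5-fold in either direction for all 10 genes, as they did for 97.2% of all genes, and within 2-fold lay those of 99.4% of all genes. Within 1.2-fold lay the intervals of 6 of the 10, namely Hspa9, Trap1, Clpp, Clpx, Afg3l2 and Spg7, close to the 58.8% of all genes. Among the 9971 genes at or above the median level, where all 10 lie, the shares were 45.1% within 1.2-fold and 94.9% within 1.5-fold. The widest reach of any of the 10 was that of Hspe1, whose interval still holds a level 1.31-fold lower. The standard error of the log2 fold change was 0.065 to 0.13 for the 10 genes, with a median of 0.078, against a median of 0.079 over all genes. Among the 138 genes that passed, the smallest fold change was 0.30 on the log2 scale in either direction, or 1.23-fold. Intervals of Hspd1, Hspe1, Lonp1 and Htra2 still hold differences larger than 1.2-fold, so these arrays leave room for changes of that size in those genes. The list of 6 depends on the arrays used. The interval of Afg3l2 reached −0.28 without control 1, and those of Clpx without control 4 and of Trap1 without deleted 4 reached 0.29. These bounds are beyond 1.2-fold, so room for such changes remains in these genes as well.

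**Figure D1:**
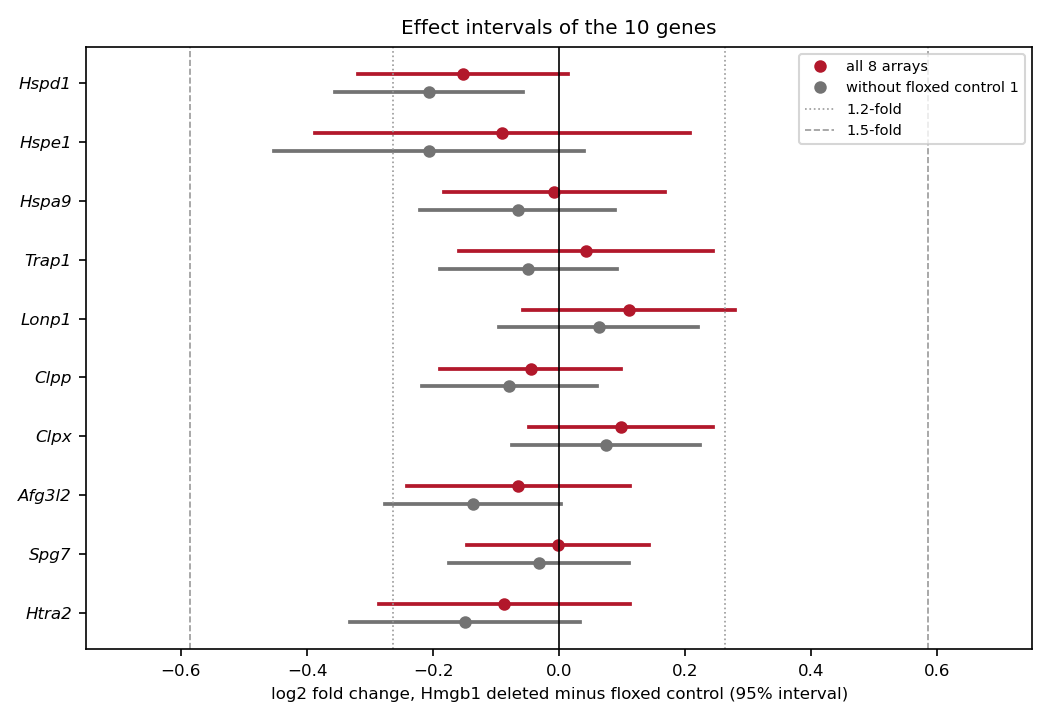
Log2 fold changes (Hmgb1 deleted minus floxed control, x axis) with 95% intervals from limma for the 10 genes, from all 8 arrays in red and without floxed control 1 in grey. Dotted and dashed lines mark 1.2-fold and 1.5-fold. All red intervals cross 0 and stay within 1.5-fold, and the grey ones lie to the left of the red ones.

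Hspd1, the Hsp60 chaperonin that forms the folding chamber of the matrix, had the lowest fold change of the 10. Its log2 intensities were 11.00, 11.09, 10.92 and 10.87 in the deleted livers and 10.96, 11.20, 11.20 and 11.13 in controls 1 to 4. Controls 2, 3 and 4 lay above all 4 deleted arrays, and control 1 lay among the deleted ones. The fold change was −0.15 (SE 0.076, 95% interval −0.32 to 0.014, limma adjusted p = 0.611) or a ratio of deleted to control of 0.90 (95% interval 0.80 to 1.01). Without control 1 it was −0.21 (95% interval −0.36 to −0.057, limma adjusted p = 0.187), and the groups did not overlap, as for 13.3% of all genes on those 7 arrays. The other probe set of Hspd1 averaged 10.40 ± 0.05 in the deleted livers and 10.54 ± 0.21 in the controls (SD, n = 4 each), with a fold change of −0.15. Both probe sets are annotated to overlapping sets of transcripts. Which copies in the genome their probes match is not known here, and Hspd1 and Hspe1 have processed copies in mammalian genomes, so their values are uncertain to that extent.

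Hspe1, the Hsp10 lid that closes the Hspd1 chamber, varied more between arrays than any other of the 10. It had 10.91, 10.93, 10.56 and 11.00 in the deleted livers and 10.59, 11.01, 11.24 and 10.92 in the controls. Deleted 3 and control 1 were low and control 3 high, and the groups overlapped widely. The fold change was −0.09 (SE 0.13, 95% interval −0.39 to 0.21, limma adjusted p = 0.970). It was −0.21 without control 1, and it changed sign to 0.0067 without deleted 3 and to 0.010 without control 3. The other probe set of Hspe1 gave −0.06.

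Hspd1 and Hspe1, which share the promoter printed above, were compared across arrays, together with the Clpp-Clpx and Afg3l2-Spg7 partners, 3 pairs in all. Over the 8 arrays Hspd1 and Hspe1 had a Pearson r of 0.62 (exact permutation p = 0.106, 0.159 adjusted over the 3 pairs) and a Spearman rho of 0.61 (exact permutation p = 0.118, 0.177 adjusted). Deleted 4 was farthest from the Hspd1 median, and controls 2 and 3 tied for the next place. Without deleted 4 and control 2, r was 0.92 over 6 arrays (exact permutation p = 0.00278, 0.00833 adjusted), and without deleted 4 and control 3 it was 0.87 (exact permutation p = 0.0125, 0.0375 adjusted). In either set of 6 arrays rho was 0.94 (exact permutation p = 0.0167, 0.05 adjusted), which is not under the threshold. Afg3l2 and Spg7 had an r of 0.76 (exact permutation p = 0.0288, 0.0863 adjusted) and a rho of 0.66 (exact permutation p = 0.0810, 0.177 adjusted). Without control 1 and control 3 r was 0.84 (exact permutation p = 0.0361, 0.0542 adjusted) and rho 0.67 (exact permutation p = 0.161, 0.242 adjusted). Clpp and Clpx had an r of 0.19 (exact permutation p = 0.648, 0.648 adjusted) and a rho of 0.054 (exact permutation p = 0.898, 0.898 adjusted). Without deleted 3 and control 3 r was 0.45 (exact permutation p = 0.35, 0.35 adjusted) and rho 0.41 (exact permutation p = 0.433, 0.433 adjusted). No pair passed after adjustment over all 8 arrays (0 of 3). The groups of 4 are too small for a value within each group. On deviations from the group means, r was 0.65 for Hspd1 with Hspe1, 0.50 for Clpp with Clpx and 0.79 for Afg3l2 with Spg7. The permutation p adjusted over the pairs was 0.124, 0.202 and 0.0366 in that order. In the same order rho was 0.56, 0.69 and 0.81, with adjusted permutation p of 0.154, 0.0954 and 0.0551. These p-values are approximate, since deviations centred within each group were shuffled over both groups, and no call is drawn from them.

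Among all genes, the 5 whose array pattern was most like that of Hspd1 were Ric8b, which helps fold G protein subunits, Glo1, the methylglyoxal-clearing glyoxalase, Auh, an enzyme of leucine breakdown, Efna5, an ephrin ligand, and Acat1, the mitochondrial acetoacetyl-CoA thiolase. Their r with Hspd1 over the 8 arrays was 0.983 for Ric8b, 0.982 for Glo1, 0.978 for Auh, 0.977 for Efna5 and 0.966 for Acat1. These are descriptions over 8 arrays that share array effects. By the same measure Hspe1 ranked 1837 and Hspa9 1045 of 17216 genes.

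**Figure D2:**
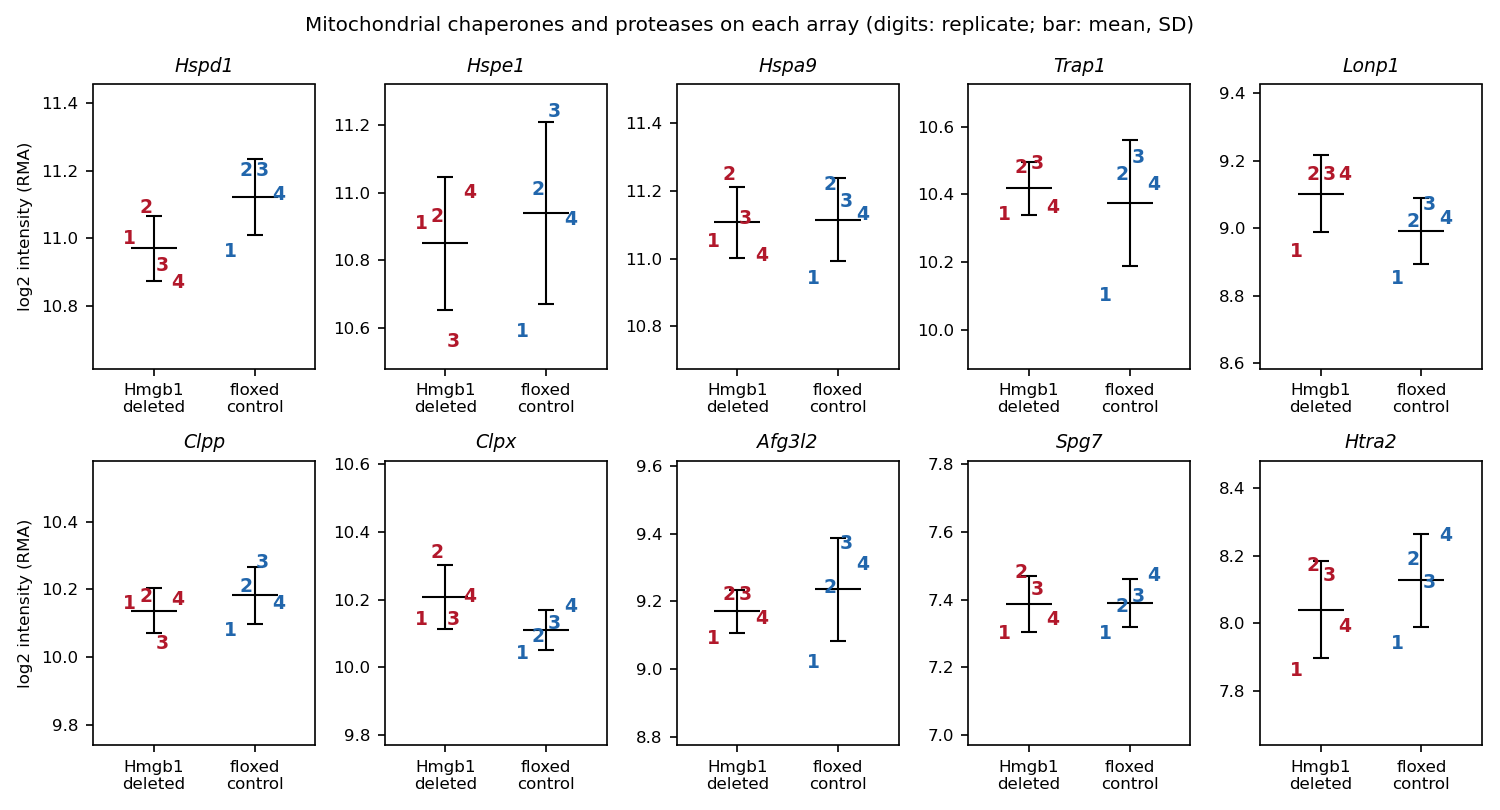
Log2 intensity (y axis, RMA values; every panel spans the same height) of the 10 genes on each array, Hmgb1 deleted at the left in red and floxed control at the right in blue. Digits are replicate numbers and bars the mean and SD of 4 arrays. The groups overlap in every panel, and control 1 is the lowest blue digit in every panel.

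Hspa9, the mitochondrial Hsp70 (mortalin) of the import motor, had 11.05, 11.25, 11.12 and 11.01 in the deleted livers and 10.94, 11.22, 11.17 and 11.13 in the controls. The lowest array was a control and the highest a deleted one. Its fold change was −0.0075 (SE 0.079, 95% interval −0.18 to 0.17, limma adjusted p = 0.996), a ratio of deleted to control between 0.881 and 1.12. A difference this close to 0 has no settled direction. It became 0.012 without deleted 1, 0.025 without deleted 4, 0.0275 without control 2 and 0.011 without control 3, and −0.066 without control 1.

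Trap1, the mitochondrial Hsp90, had 10.34, 10.48, 10.49 and 10.36 in the deleted livers and 10.10, 10.46, 10.51 and 10.43 in the controls. All 4 deleted values lay between control 1 and control 3. The fold change was 0.04 (SE 0.091, 95% interval −0.16 to 0.24, limma adjusted p = 0.981). Without control 1 it was −0.049.

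Of the matrix proteases, Lonp1, which removes oxidised and unassembled proteins, had the highest fold change of the 10. It had 8.93, 9.16, 9.16 and 9.16 in the deleted livers and 8.85, 9.02, 9.07 and 9.03 in the controls. Deleted 2, 3 and 4 were above every control, and deleted 1 lay below controls 2, 3 and 4. The fold change was 0.11 (SE 0.076, 95% interval −0.058 to 0.28, limma adjusted p = 0.808) or a ratio of deleted to control of 1.08 (95% interval 0.961 to 1.21). Without deleted 1 it was 0.17 (limma adjusted p = 0.447) with groups that did not overlap, as for 10.5% of all genes on those 7 arrays, and without control 1 it was 0.0625.

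Clpp, the peptidase that forms the proteolytic barrel, had 10.16, 10.18, 10.04 and 10.17 in the deleted livers and 10.08, 10.21, 10.28 and 10.16 in the controls, with a fold change of −0.045 (SE 0.065, 95% interval −0.19 to 0.098, limma adjusted p = 0.970). Deleted 1, 2 and 4 lay within 0.02 of each other and deleted 3 below them. With 1 array left out, the fold change of Clpp ran from −0.079 without control 1 to −0.0125 without deleted 3 or without control 3. Clpx, the unfoldase that feeds Clpp, had 10.14, 10.34, 10.14 and 10.21 in the deleted livers and 10.04, 10.09, 10.13 and 10.18 in the controls. Deleted 2 and 4 were above every control, and controls 1, 2 and 3 below every deleted array. Its fold change was 0.0975 (SE 0.066, 95% interval −0.048 to 0.24, limma adjusted p = 0.798), and with 1 array left out it ran from 0.053 without deleted 2 to 0.12 without control 4. Without control 4 the groups did not overlap, as for 7% of all genes on those 7 arrays. In the deleted livers the mean of the unfoldase was higher and that of the peptidase lower, neither past the threshold.

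In the inner membrane, Afg3l2, the catalytic subunit of the m-AAA protease, had 9.09, 9.22, 9.22 and 9.15 in the deleted livers and 9.02, 9.24, 9.37 and 9.31 in the controls. Controls 2, 3 and 4 lay above every deleted array and control 1 below every one. The fold change was −0.065 (SE 0.080, 95% interval −0.24 to 0.11, limma adjusted p = 0.955). Without control 1 it was −0.14 (95% interval −0.28 to 0.0024, limma adjusted p = 0.368), and without control 3 it was −0.02. Spg7 (paraplegin), the partner subunit that is mutated in a human hereditary spastic paraplegia, had 7.30, 7.48, 7.43 and 7.34 in the deleted livers and 7.30, 7.38, 7.41 and 7.47 in the controls. The ranges of the groups were almost the same, and the fold change was −0.0025 (SE 0.065, 95% interval −0.15 to 0.14, limma adjusted p = 0.996), the smallest of the 10. Its sign changed with the array left out, between −0.033 without deleted 2 and 0.027 without deleted 1.

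Htra2 (Omi), the serine protease of the intermembrane space, had 7.86, 8.17, 8.14 and 7.99 in the deleted livers and 7.94, 8.19, 8.12 and 8.26 in the controls. Both groups held low and high arrays. The fold change was −0.0875 (SE 0.090, 95% interval −0.29 to 0.11, limma adjusted p = 0.933). It was −0.15 without control 1 and −0.0275 without deleted 1.

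Array by array, floxed control 1 was the common feature. It lay below the gene's own mean over 8 arrays for 10 of 10 genes and was the lowest of the 8 arrays, or tied for it, for 6 of them (Hspa9, Trap1, Lonp1, Clpx, Afg3l2 and Spg7). Over all genes, control 1 was the lowest array for 22.7%. The median deviation of the 10 genes from their own means was −0.16 on control 1, between −0.059 and 0.085 on the 4 deleted arrays, and between 0.029 and 0.086 on controls 2 to 4. Without control 1, 8 of the 10 genes had a lower mean in the deleted livers, and 0 of 10 passed. The median fold change of the 10 was then −0.0725, beside 0.012 over all genes. On those 7 arrays 1.61% of all genes passed. With both arrays numbered 1 left out, 3 of the 10 had groups that did not overlap, against 19.1% of all genes, and after repeated quantile normalization 1 of the 10 had such groups, against 8.5%. The count by direction also turned on other choices. Without control 3, 6 of the 10 were higher and 4 lower, with a median of 0.0071 beside −0.0075 over all genes. After repeated quantile normalization or centring of the arrays on their medians 5 were higher and 5 lower. The median over all genes was 0.013 after the former and 0.02 after the latter.

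The partners of these chaperones were compared next. Of 12 measured genes for cofactors and partners of the mitochondrial chaperones, 0 passed the threshold as higher and 1 as lower. Over all genes the shares were 0.296% and 0.396%. The median fold change of the 12 was 0.0625, or 0.0033 without control 1. The gene that passed is Grpel2, one of 2 mitochondrial GrpE-like factors that release ADP from Hspa9 and so reset the Hsp70 cycle. Grpel2 had 8.76, 9.11, 8.96 and 8.91 in the deleted livers and 9.37, 9.37, 9.53 and 9.58 in the controls. All 4 deleted arrays were below all 4 controls, and 5.57% of all genes had groups that did not overlap. Grpel2 fell by 0.53 on the log2 scale (SE 0.085, 95% interval −0.71 to −0.34, limma adjusted p = 0.0218). The direction was the same in all 18 alternatives, with fold changes from −0.59 to −0.47. Since the groups did not overlap, leaving out arrays or changing the variance model could not have turned it. The call was lost when all probe sets were tested (limma adjusted p = 0.0574), with arrays centred on their medians (0.0783), and without deleted 3 (0.0706), deleted 4 (0.0857), control 3 (0.0784) or control 4 (0.101).

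The other GrpE-like factor, Grpel1, was looked at after these values were seen. It had 10.24, 10.20, 10.09 and 10.18 in the deleted livers and 9.99, 10.29, 10.31 and 10.15 in the controls, with a fold change of −0.0075 (SE 0.079, limma adjusted p = 0.996) that changed sign between −0.0725 without control 1 and 0.034 without control 3. The within-array difference of Grpel2 minus Grpel1 averaged −1.24 ± 0.18 in the deleted livers and −0.72 ± 0.16 in the controls (log2, SD, n = 4 each). Its shift of −0.52 had an exact permutation p (2-sided) of 0.0286, the lowest value possible with 4 arrays a group, in a comparison picked for its size.

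**Figure D3:**
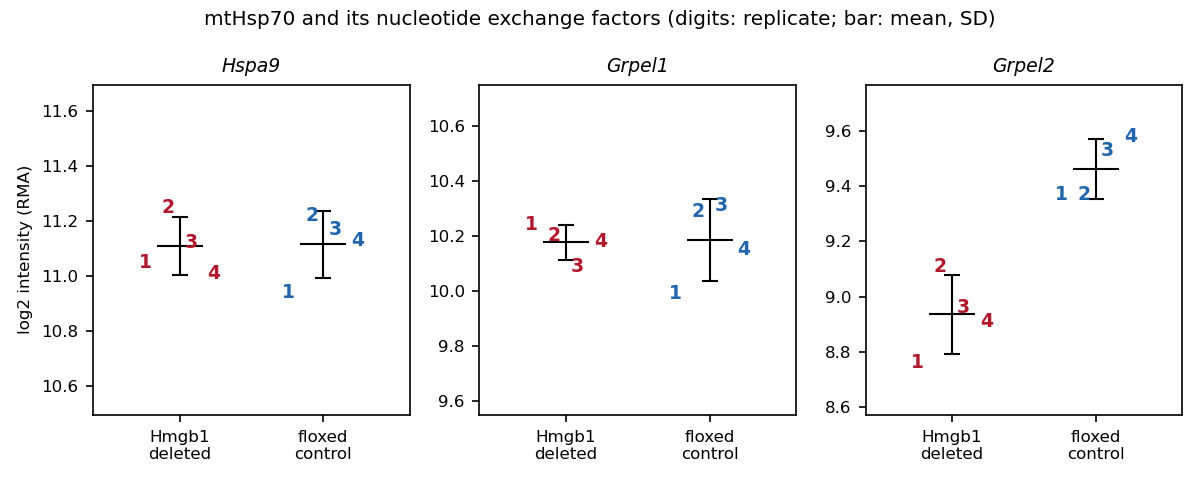
Log2 intensity (y axis, RMA values; panels span the same height) of Hspa9 and of the nucleotide exchange factors Grpel1 and Grpel2 on each array, Hmgb1 deleted at the left in red and floxed control at the right in blue. Digits are replicate numbers and bars the mean and SD of 4 arrays. Groups overlap for Hspa9 and Grpel1 and are apart for Grpel2, at 8.94 ± 0.14 in the deleted livers and 9.46 ± 0.11 in the controls (SD, n = 4 each).

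In the other companion lists no gene passed. Other mitochondrial proteases and peptidases had 8 of 12 genes higher, a median fold change of 0.026 and 0 past the threshold. Without control 1 the direction turned, with 8 of the 12 lower and a median of −0.049. Oma1, the stress-activated peptidase that cuts Opa1, had 0.2975 (SE 0.13, limma adjusted p = 0.501) and 0.16 without control 1, and the aminopeptidase Xpnpep3 had 0.21 and 0.099 without control 1. Scaffolds and adaptors of the inner membrane proteases had 4 of 6 genes higher, a median of 0.0088 and 0 past the threshold, and without control 1 4 of 6 lower and a median of −0.0725. Among them were the ATPase Afg1l at −0.25 (SE 0.087, limma adjusted p = 0.325) and the import oxidoreductase Chchd4 at 0.075, or 0.027 without control 1.

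The import channel had 7 of 11 genes higher, a median of 0.0675, or 0.018 without control 1, and 0 past the threshold, with the channel subunits Timm17b at 0.17 (SE 0.066, limma adjusted p = 0.427) and Timm50 at 0.21, or 0.12 without control 1. Transcription factors and secreted factors of the mitochondrial stress response had 6 of 9 genes higher, a median of 0.0475, or 0.0025 without control 1, and 0 past the threshold. Atf4, which drives stress genes when its translation is raised, had 0.15 (SE 0.071, limma adjusted p = 0.584), and Ddit3 (CHOP), a partner of ATF4, had 0.185 (SE 0.091, limma adjusted p = 0.606) and 0.12 without control 1. Cytosolic and endoplasmic reticulum chaperones had 5 of 10 genes higher, a median of 0.0075 and 0 past the threshold, and without control 1 6 of 10 lower and a median of −0.023. Among them were the Hsp40 Dnajb1 at 0.18, or 0.07 without control 1, and the cytosolic chaperonin subunit Cct2 at 0.11, or 0.0625 without control 1. Floxed control 1 had the lowest mean level of the 8 arrays in each of the 6 companion lists.

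**Figure D4:**
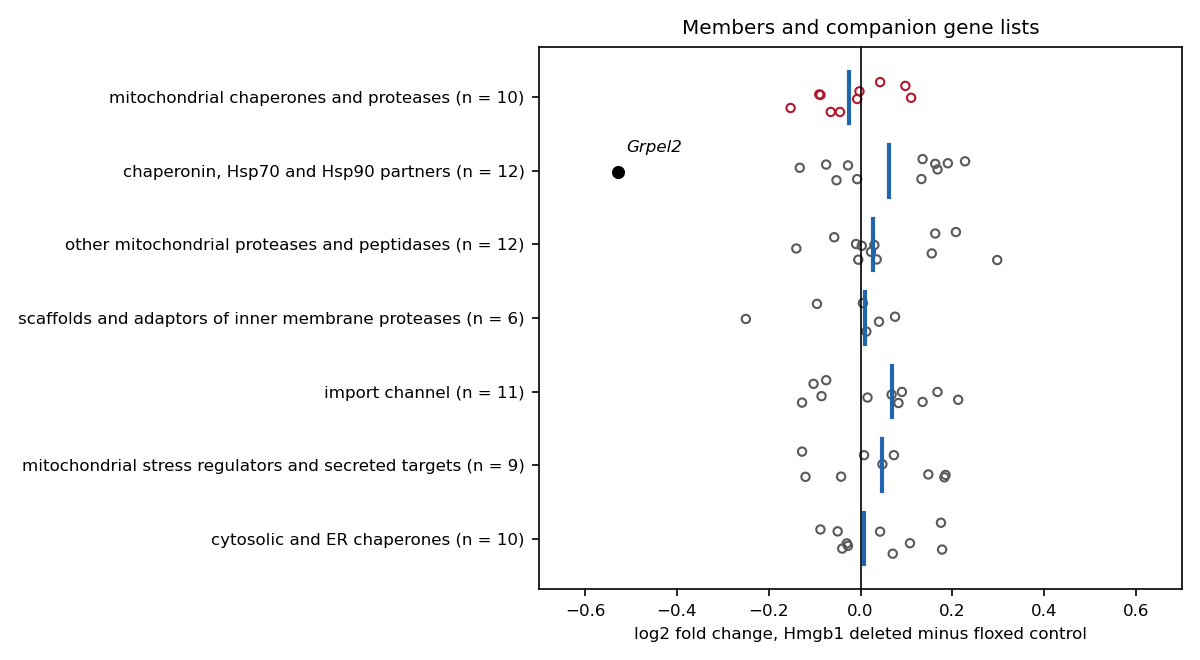
Log2 fold changes (Hmgb1 deleted minus floxed control, x axis) of the 10 genes in red and of 6 companion lists in grey, 1 point per gene, with the median of each list as a blue bar. The filled point is Grpel2, the 1 gene with an adjusted p under 0.05, and the medians lie between −0.026 and 0.0675 on the 8 arrays drawn, against −0.0725 to 0.018 without floxed control 1.

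Markers of other cell types differed in part between the groups. All 8 sinusoidal endothelial markers had lower means, with array means of 9.04 to 9.15 in the deleted livers and 9.29 to 9.45 in the controls. Of the 8, 1 passed the threshold, the lectin Clec4g, where 0.396% of all genes passed as lower. Erythroid markers were lower for 5 of 5 genes, 0 past the threshold, at 7.59 to 7.73 in the deleted livers and 7.84 to 8.11 in the controls. Hepatocyte markers were lower for 7 of 8, 0 past the threshold, at 12.72 to 13.14 in the deleted livers, where deleted 4 was lowest, and 13.05 to 13.16 in the controls. Stellate cell, Kupffer cell, cholangiocyte, lymphocyte and neutrophil markers held 0 genes past the threshold. The part of these cell types in the values of the 10 genes and of Grpel2 was not tested.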

How the data were processed

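RNA from 8 mouse liver samples was amplified from 150 ng with the Ambion WT Expression kit and labelled with biotin, per the labels' protocols. Per the submitters' processing notes (no version named), the authors used RMA, a method that subtracts background, makes arrays comparable and combines probes into probe sets. Judged by their range, the deposited values are on a log2 scale, with 2 decimals. No genome build or probe position is named in the labels. Arrays give no count of reads, so precision was limited by their number and spread.

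Of 35556 probe sets, 21789 carried exactly 1 gene symbol in GEO's annotation of the array, 1621 several and 12146 none. Each of 19938 genes was represented by the single-symbol probe set with the highest mean, also for the 999 genes with more than 1. The 4 deleted and 4 control arrays were compared over all genes with limma 3.58.1 in R 4.3.3 (lmFit, eBayes, 2-sided, no covariate), with Benjamini-Hochberg adjustment over all genes and a threshold of 0.05. Log2 fold changes (deleted minus control) are given with 95% intervals. Tables and figures used Python 3.11.15. The scripts were tested on simulated arrays.

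Alternatives were all probe sets, a gene's probe sets averaged, leaving out dim genes, repeated quantile normalization, median centring, a variance trend, a robust prior, the replicate number as a block, array weights, and each array left out. Leaving out both arrays numbered 1, the list medians without control 1, and the tied array in 1 correlation were added after seeing the data. Members and lists were chosen with earlier results of these data known. All 10 members are named. Of each companion list, the genes past the threshold are named, or the 2 with the smallest p, and the 5 genes most like Hspd1 were taken without predicted genes, microRNAs and olfactory or vomeronasal receptors. Promoter sequences are those of RefSeq, GRCm38.p6, which gave windows for 7 of the 10 members.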

Additional observations from a re-analysis of the deposited data

Results flagged for a closer look

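For each of the 10 genes, both groups of 4 values were searched for an array whose gap to its nearest neighbour made up most of the group's range. In 20 groups, 2 such arrays were found. By chance about 1 group in 20 would hold one, which is 1 here. Lonp1 had 8.93 on deleted 1, against 9.16 on each of the other 3 deleted arrays. Clpp had 10.04 on deleted 3, against 10.16 to 10.18 on the other 3.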

How the results depend on the processing

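In 18 alternatives, 17 of them planned, 0 of 180 member values passed the threshold, and the lowest adjusted p was 0.187 (Hspd1 without control 1). The widest interval bound was 1.41-fold, for Hspe1 with both arrays numbered 1 left out. Signs held throughout for 6 of the 10 genes (Lonp1, Clpp, Clpx, Afg3l2, Htra2 and Hspd1) and changed in 17 values of the other 4; the cause was not tested. Repeated quantile normalization gave 0.01125 for Spg7, 0.0605 for Hspa9 and 0.0039 for Grpel1, and centring on medians 0.0175 for Spg7 and 0.0125 for both Hspa9 and Grpel1. Trap1 had −0.010 with array weights and −0.023 with both arrays numbered 1 left out. With 1 array left out, fold changes ran from −0.033 to 0.027 for Spg7, −0.21 to 0.010 for Hspe1, −0.066 to 0.0275 for Hspa9, −0.049 to 0.0875 for Trap1 and −0.0725 to 0.034 for Grpel1. Groups did not overlap for 1 gene of the 10 (Clpx) after repeated quantile normalization, against 8.5% of all genes, for 3 (Lonp1, Afg3l2 and Hspd1) with both arrays numbered 1 left out, against 19.1%, and for 0 to 2 with 1 array left out, against 7% to 13.3%.

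Correlations of same-numbered arrays' deviations from their group means were 0.447, 0.065, −0.081 and 0.422. Those of differently numbered arrays ran from −0.485 to 0.327. The labels do not say that the replicate numbers pair the samples, and these values do not settle it. With the replicate block, 325 genes passed against 138 without it, and 0 of the 10. All genes past the threshold numbered 264 after repeated quantile normalization, 61 with centred arrays, 526 with array weights, 321 without control 1, 366 with both arrays numbered 1 left out, and 37 to 98 without another single array. The r of Hspd1 with Hspe1 passed only without deleted 4 and either of the tied controls 2 (0.92) and 3 (0.87, added after seeing the data). Its rho there had an adjusted permutation p of 0.05, not under the threshold. The r of Afg3l2 with Spg7 had an adjusted permutation p under 0.05 only on deviations from group means (0.79), where the p is approximate. The adjusted permutation p of rho on those deviations was 0.0551.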
